A study of Arabidopsis thaliana and Nicotiana tabacum with 16 samples.

Results

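The 36 genes described here carry out and regulate tetrapyrrole and chlorophyll metabolism in Arabidopsis. They were chosen by gene identifier from what is known of the pathway. The rule uses no measured value, but earlier results of these data were known when it was made. All 36 were found among the 27628 genes of the count tables. The set runs from glutamyl-tRNA to chlorophyll, heme and phytochromobilin, includes the regulators GUN4 and FLU, and ends with the chlorophyll cycle and chlorophyll breakdown. In Ribo-seq, lysates are digested with a nuclease and the pieces of mRNA covered by ribosomes, the ribosome-protected fragments (RPFs), are sequenced, so the values are RPF counts over each coding sequence (CDS). Wild type Col-0 seedlings were used throughout, and the groups differ in nuclease, dose, age, rRNA removal and library kit. Photoperiod and growth medium also differ between the ages, and the fragment size selected differs between depleted and undepleted libraries. A pair of libraries was made from 14-day seedlings with 600 U of RNase I and rRNA removal, one with a ligation-free kit and one with a ligation-based kit. Another pair from 14-day seedlings, also with 600 U, was depleted of rRNA with version 1 (24 oligos, V1) or version 2 (29 oligos, of which 5 are absent from V1; V2) of a biotinylated oligo pool. Undepleted libraries came from 14-day seedlings digested with 400, 550 or 700 U of RNase I, with a repeat library of the same 700 U fragments, and from 8-day seedlings treated with MNase (75, 150 or 300 U) or RNase I (62.5, 125 or 250 U). The lowest RNase I dose reads 63 U in the title and the nuclease label of its sample and 62.5 U in the treatment label. Each condition is 1 library of bulk seedling tissue, and the doses of a nuclease serve as its only repeats, so every p-value measures only the spread between these libraries.

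Plants make all tetrapyrroles from 5-aminolevulinic acid (ALA), which is formed in the plastid from glutamyl-tRNA by nucleus-encoded enzymes. The pathway runs to protoporphyrin IX, where magnesium chelatase opens the branch to chlorophyll and ferrochelatase opens the branch to heme and the phytochrome chromophore. Free intermediates are harmful in light, so synthesis is held tightly at ALA formation and at magnesium insertion, and it is tied to light, the circadian clock and the supply of chlorophyll-binding proteins. RPF counts reflect transcript abundance and ribosome load together, and these were not separated here.

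Total CDS counts ranged between 2338819 and 11583740 per library. The 36 genes took a steady share, 1.29 to 1.46% of all CDS counts and 1.66 to 1.80% of nuclear CDS counts in the 14 Arabidopsis libraries, and the lowest count of any of them in any library was 5. All 5 green tissue markers, among them RBCS1A and RCA, were detected in every library. Levels are given as CPM, the counts of a gene per fixed total of CDS counts, after TMM scaling over the 14 libraries. Of the libraries labelled 14-day, depleted V1 lay furthest from its label. It lay nearer to the 8-day mean for all 26 tetrapyrrole genes called between the ages below, and for 91.5% of the 7786 genes called in all. For the depleted V2 library these figures were 10 of 26 and 63.8%, for the ligation-based library 11 of 26 and 53.4%, for the ligation-free library 13 of 26 and 55.3%, and for the 700 U repeat 5 of 26 and 16.9%. The MNase libraries of 8-day seedlings lay nearer to the 8-day RNase I mean for 24, 23 and 23 of 26, and for 87.1, 86.5 and 88.3% of all called genes (75, 150 and 300 U). The 10 root markers, such as PYK10, summed to 2256 CPM in V1, 1675 in V2, and 1287 and 1224 in ligation-based and ligation-free libraries. Their sum was 987 to 1068 CPM in undepleted 14-day and 2088 to 2169 CPM in 8-day RNase I libraries. In V2 it rests on PYK10 (1399.5 CPM) and NAI2 (229 CPM). TIP2;3, EXPA7, EXPA18, COBL9, LRX1 and PRP3 had 0 to 0.462 CPM in V2 and 1.79 to 10.2 CPM in V1. In undepleted 14-day libraries these had 0 to 1.52 CPM. Fewer cells of a type and less RNA per cell cannot be told apart in such bulk samples.

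RPF density, the CPM per kb of CDS, spanned 825-fold between the highest and the lowest gene of the set. CHLP (AT1G74470), the geranylgeranyl reductase that makes the phytyl tail, averaged 1886 CPM per kb over the 14 libraries. CRD1 (AT3G56940), a subunit of the cyclase that closes the fifth ring, averaged 1783, and CHLH (AT5G13630), the porphyrin-binding subunit of magnesium chelatase, averaged 810.4. At the other end stood the chlorophyll b reductase subunit NOL (AT5G04900) at 18.4, the phytochromobilin synthase HY2 (AT3G09150) at 11.5 and PORA (AT5G54190), the protochlorophyllide oxidoreductase known from etiolated seedlings, at 2.29 CPM per kb. Among 27420 nuclear genes, 25 of the 36 lay in the top 10% of RPF density, 4 in the top 1% (CHLP, CRD1, CHLH and CHLI1), and 35 above the median, with PORA the exception. CHLH, CHLP and CRD1 together took 56.9 to 62.9% of the summed CPM of the set in every library. By branch, the 15 genes of the magnesium branch held 76.6 to 80.8%, the 4 of ALA synthesis 9.14 to 10.0%, the 7 between ALA and protoporphyrin 6.89 to 10.3%, the 4 of the heme and bilin branch 1.38 to 1.99%, and the 6 of the chlorophyll cycle and breakdown 1.35 to 1.72%. FLU, which restrains ALA synthesis, is counted in the magnesium branch.

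**Figure D1:**
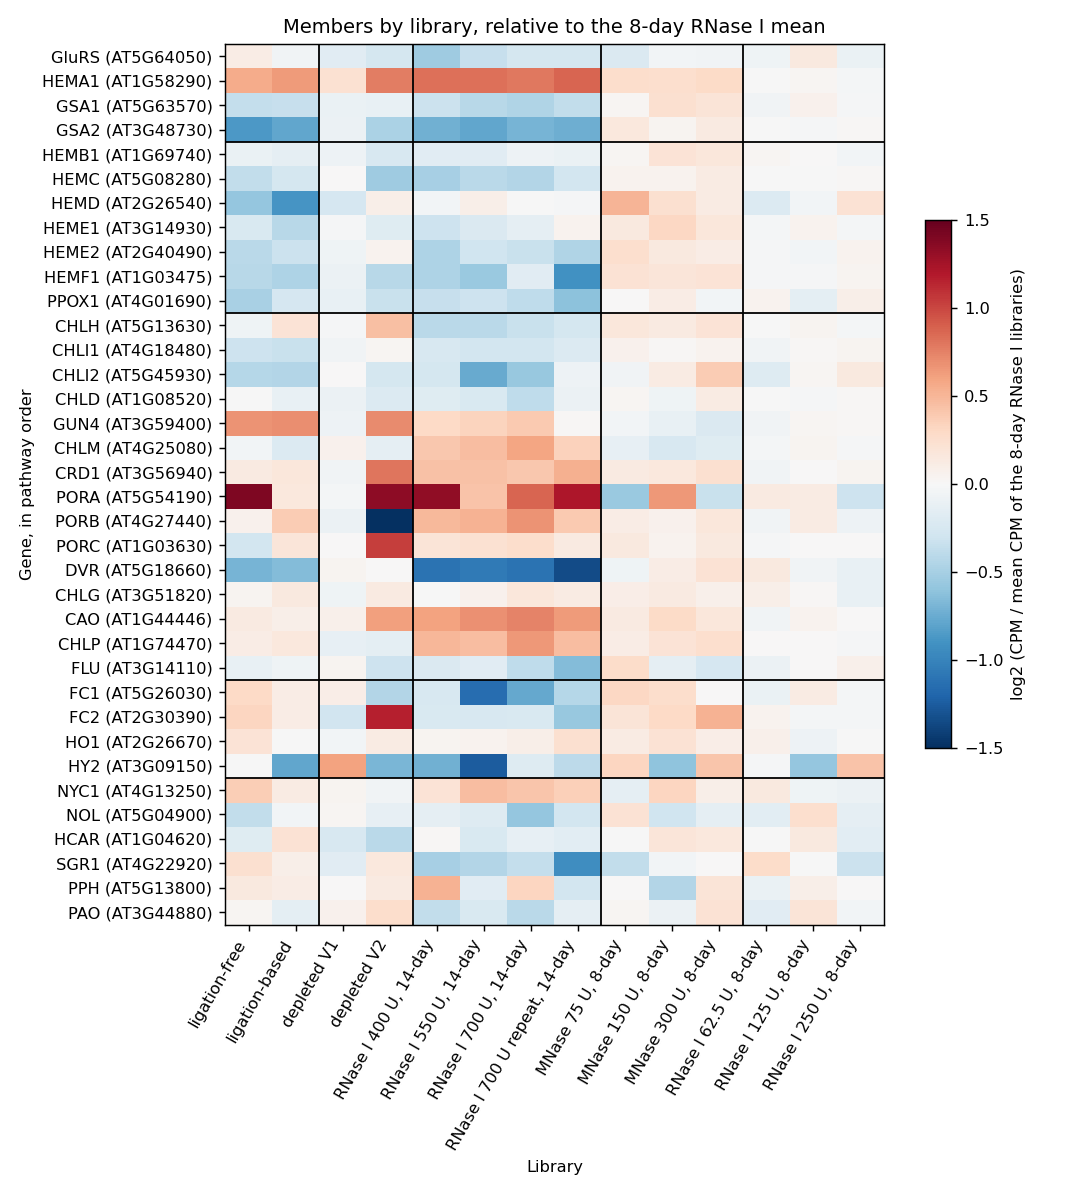
Level of each of the 36 genes (rows, in pathway order) in each of 14 libraries (columns), as the log2 ratio of its CPM to its mean in the 3 8-day RNase I libraries. The colour scale ends at 1.5 in both directions, and PORB in depleted V2 lies below it; V1 is pale like the 8-day columns, whereas HEMA1 is red and DVR blue in the undepleted 14-day columns.

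Several steps are encoded by a pair of similar genes, and reads from identical stretches cannot be assigned to one of them. The CDS of each gene was therefore searched for words of 28 bases, about the length of an RPF, that also occur in another nuclear CDS. PORA and PORB shared 18 such words, 1.52% and 1.53% of the words in each, and their longest identical run was 44 bases at the start of the CDS. The glutamate-1-semialdehyde aminotransferase genes GSA1 and GSA2 shared 22 words (1.58% of each) and a run of 38 bases, and the magnesium chelatase subunit genes CHLI1 and CHLI2 shared 18 words (1.45% and 1.47%) and a run of 44 bases. Shares above 2% were found for HEMA1 (2.06%, with HEMA2) and for HO1 (4.15%), whereas HEMF1 shared 12 words with HEMF2, SGR1 shared 1 with SGR2, and the remaining 26 genes shared none. Thus over 95% of the 28-base words of each gene had no exact match in another nuclear CDS. Shorter reads, reads with mismatches and copies outside nuclear CDS were not examined. The longest shared run of each pair is shown because counts of one gene may hold reads of its partner there. Capitals mark the identical run, read 5′ to 3′ along the CDS from the RefSeq genome TAIR10.1, and the PORA interval holds an intron that is left out of its sequence.
PORB chr4:13725648-13725706 (plus strand): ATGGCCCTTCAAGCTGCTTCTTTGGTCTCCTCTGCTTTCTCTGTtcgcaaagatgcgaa
PORA chr5:21992625-21992773 (minus strand): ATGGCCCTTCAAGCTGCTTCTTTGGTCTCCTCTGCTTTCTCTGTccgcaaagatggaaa
GSA2 chr3:18050392-18050459 (plus strand): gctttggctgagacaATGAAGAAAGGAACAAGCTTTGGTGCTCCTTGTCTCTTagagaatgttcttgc
GSA1 chr5:25452476-25452543 (plus strand): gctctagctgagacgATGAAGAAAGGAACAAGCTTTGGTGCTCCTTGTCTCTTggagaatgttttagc
CHLI1 chr4:10202471-10202544 (minus strand): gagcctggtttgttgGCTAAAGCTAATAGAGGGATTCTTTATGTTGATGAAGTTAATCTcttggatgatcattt
CHLI2 chr5:18628918-18628991 (plus strand): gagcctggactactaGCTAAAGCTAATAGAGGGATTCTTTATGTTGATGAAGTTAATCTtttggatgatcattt

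Whether the choice of nuclease alters the RPF levels of these genes was examined in 8-day seedlings, 3 doses of MNase against 3 of RNase I. Levels differed little: 4 of the 36 genes were higher with MNase, 0 were lower, and the others were not called. Over all 16738 genes tested, 1.35% were called higher and 0.603% lower (1.95% in either direction) by the edgeR quasi-likelihood test. These genes were not matched to the 36 for level, and 25 of the 36 lay in the top 10% of RPF density. HEME1, CAO and FC2 had log2 fold changes of 0.22, 0.20 and 0.34 without overlap, yet were not called. At an unadjusted p under 0.05, 10 of the 36 were higher and 1 was lower, against 6.58% and 5.03% of all genes. DESeq2 gave the same pair of numbers at that level, against 5.24% and 4.34% of all genes, and also called 0 lower after adjustment. The median log2 fold change of the 36 was 0.11, against -0.00 for all genes, and 29 of them lay above 0. MNase libraries lay wholly above RNase I libraries for 14 of the 36 (9.15% of all genes) and wholly below them for 1 (7.92% of all genes), the methyltransferase gene CHLM.

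HEMA1 (AT1G58290) encodes glutamyl-tRNA reductase, the first committed enzyme of ALA synthesis. It stood at 589.9, 585 and 601 CPM with 75, 150 and 300 U of MNase and at 489, 502 and 482 CPM with 62.5, 125 and 250 U of RNase I. All MNase values were above all RNase I values, with a log2 fold change of 0.27 ± 0.06 (SE) and an edgeR adjusted p of 0.0031, and this call was kept when any of the 6 libraries was left out. CHLH had 3784, 3705 and 3886 CPM with MNase, against 3339, 3447 and 3304 CPM with RNase I. Its groups were apart as well (log2 fold change 0.17 ± 0.04, edgeR adjusted p = 0.0073). CHLP, with 2466, 2629 and 2725 CPM under MNase and 2298, 2298 and 2264 CPM under RNase I, differed by 0.19 ± 0.04 (log2, edgeR adjusted p = 0.0079). CRD1 had 2005, 2035 and 2151 CPM with MNase and 1759, 1833 and 1873 CPM with RNase I, a difference of 0.18 ± 0.05 (log2, edgeR adjusted p = 0.019). In both genes every MNase library again lay above every RNase I library.

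For 3 of these 4 genes the call was lost when 1 library was left out. Without the 250 U RNase I library the edgeR adjusted p was 0.091 for CHLH and 0.069 for CHLP. Without the 150 U MNase library it was 0.09 for CHLP and 0.086 for CRD1, and without the 125 U RNase I library 0.073 and 0.12. CRD1 also lost its call without the 300 U MNase library (0.061) and without the 62.5 U RNase I library (0.16), and with library totals in place of TMM (log2 fold change 0.15, adjusted p = 0.06). In 1 fit over 4 groups of libraries (8-day MNase and RNase I, 14-day undepleted and depleted) none of the 4 genes was called (edgeR adjusted p = 0.64 for HEMA1, 0.78 for CHLH, 0.68 for CHLP and 0.86 for CRD1). Conversely FC2, a ferrochelatase gene with 59.9, 64.5 and 75.3 CPM under MNase against 54.6, 51.6 and 51.4 CPM under RNase I (edgeR adjusted p = 0.11), was called without the 75 U MNase library (log2 fold change 0.41, adjusted p = 0.044).

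Genes of neighbouring functions moved in these libraries too. Of 20 light-harvesting protein genes, 14 were higher with MNase (median log2 fold change 0.23), as were 4 of 5 green tissue markers and 1.35% of all genes. The summed level of those 5 was 36689 to 37859 CPM with MNase and 31804 to 33746 CPM with RNase I, without overlap, and its part in the result for the tetrapyrrole genes was not tested. None of 18 other genes of the pathway, 9 regulators of greening or 8 genes of the plastid isoprenoid (MEP) pathway passed the test.

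The comparison of 14-day with 8-day seedlings, both digested with RNase I, showed larger differences. Of the 36 genes, 9 were higher in 14-day seedlings and 17 were lower. Over all 15460 genes tested, which were not matched to the 36 for level, 25.3% were called higher and 25.1% lower (50.4% in either direction). The median log2 fold change of the 36 was -0.25, against 0.01 for all genes. The 14-day libraries lay wholly above the 8-day libraries for 10 of the 36 (27.9% of all genes) and wholly below for 19 (28.6% of all genes). By stage, HEMA1 was the 1 gene of ALA synthesis that was higher, and the other 3 were lower. Between ALA and protoporphyrin 5 of 7 were lower, whereas in the magnesium branch 7 of 15 were higher and 6 were lower. The 6 include FLU, which acts on ALA synthesis but was listed with this branch. The groups also differ in dose (400 to 700 U against 62.5 to 250 U), in photoperiod and in the sucrose of the medium, which was named only for the 8-day seedlings. Age cannot be told apart from these. In 1 fit over 4 groups, 5 of the 36 were higher and 13 lower, against 18.1% and 18.9% of all genes. The higher genes that lost their call there were GUN4, PORB, PORC and NYC1 (edgeR adjusted p = 0.079, 0.13, 0.33 and 0.053), and the lower ones FLU, HY2, HEME1 and PAO (0.2, 0.22, 0.12 and 0.089). This comparison shares its 8-day RNase I libraries with the one of nucleases.

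**Figure D2:**
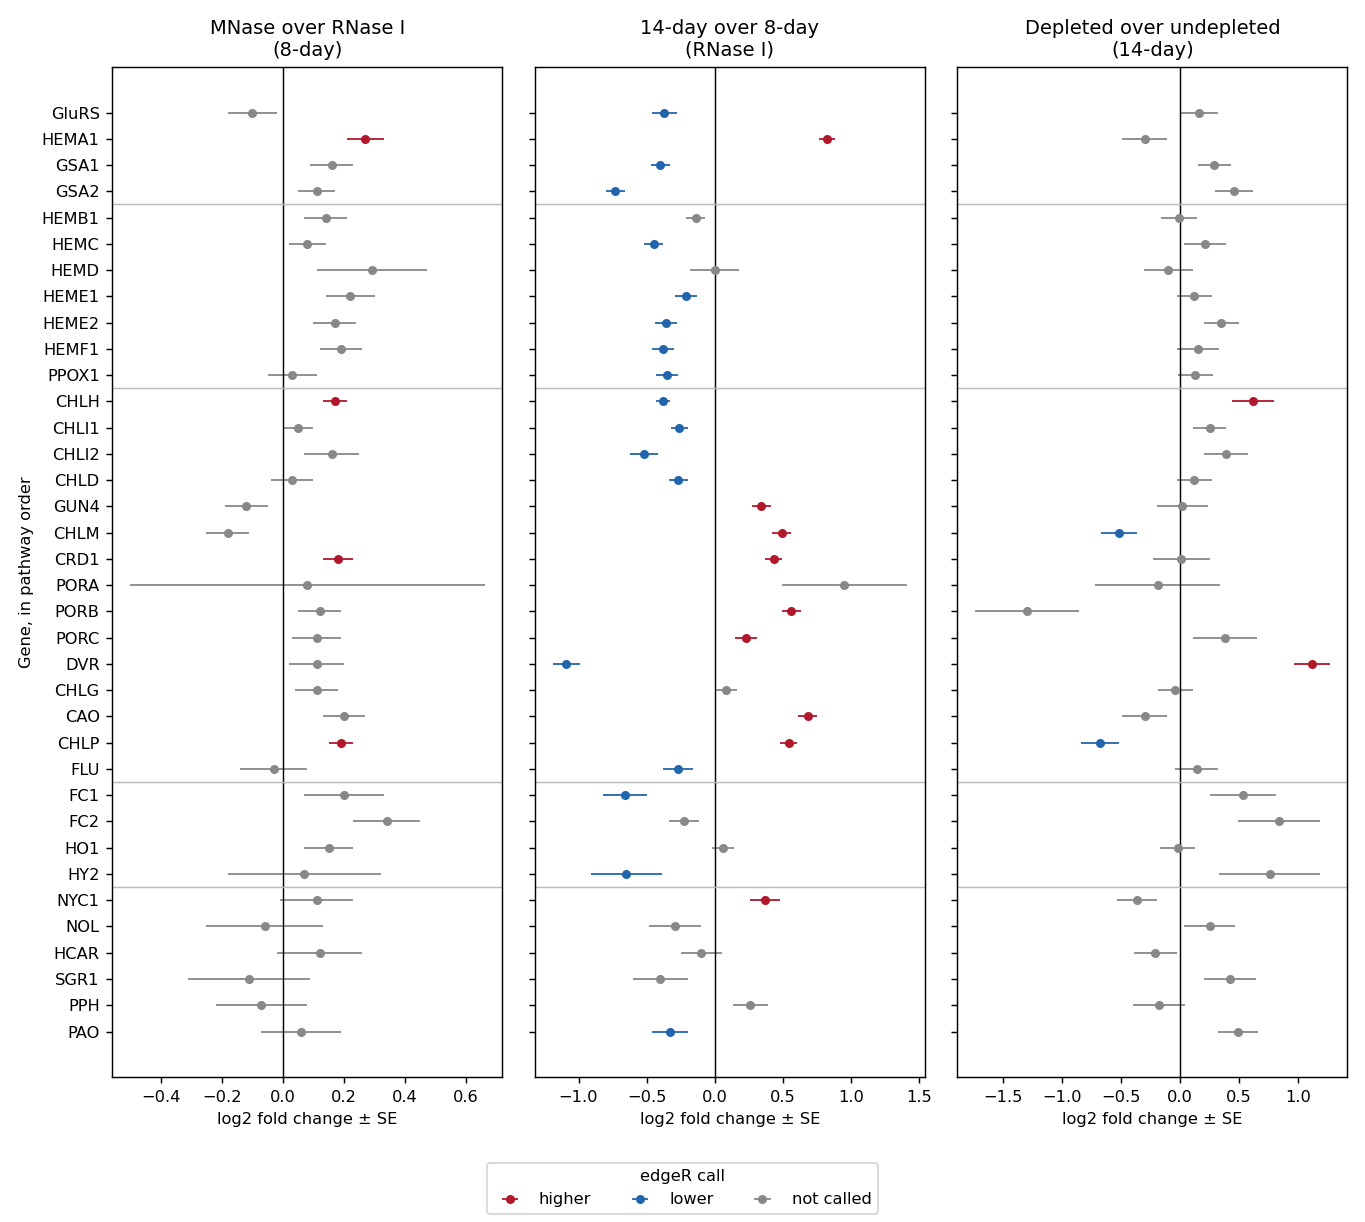
Log2 fold change with its SE (horizontal axes) of each of the 36 genes (rows, in pathway order) in the 3 comparisons, the group named first over the second. Red and blue points are genes called higher and lower by edgeR and grey points are not called; HEMA1 at 0.82 and DVR at -1.09 are the outermost calls between 14-day and 8-day seedlings. Scales differ between the panels.

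At the entry to the pathway, HEMA1 stood at 874, 869 and 848 CPM in 14-day seedlings (400, 550 and 700 U) and at 489, 502 and 482 CPM in 8-day seedlings. The groups were far apart, with a log2 fold change of 0.82 ± 0.06 (edgeR adjusted p = 2.9e-17). The enzymes on either side of it went the other way. GSA2 (AT3G48730), which converts glutamate-1-semialdehyde to ALA, had 229.9, 221 and 234 CPM at 14 days and 378, 373 and 384 CPM at 8 days, a log2 fold change of -0.73 ± 0.07 (edgeR adjusted p = 1.3e-13). Its partner GSA1 (AT5G63570) fell by 0.40 ± 0.07 and the plastid glutamyl-tRNA synthetase GluRS (AT5G64050) by 0.37 ± 0.09 on the log2 scale (edgeR adjusted p = 9.5e-06 and 4.1e-04). Per kb of CDS, the level of HEMA1 over that of GSA1 and GSA2 together was 1.84, 1.93 and 1.84 in 14-day seedlings, and 0.710, 0.712 and 0.685 in 8-day seedlings. This ratio was 0.770 to 0.784 with MNase, slightly above the RNase I libraries of the same age.

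FLU (AT3G14110), a membrane protein that binds glutamyl-tRNA reductase and restrains ALA synthesis in the dark, had 57.8, 59.8 and 51.5 CPM at 14 days and 63.3, 67.3 and 71.1 CPM at 8 days. The groups were apart but close, with a log2 fold change of -0.27 ± 0.11 (edgeR adjusted p = 0.031). That call did not hold with DESeq2 (adjusted p = 0.09). Left out in turn, the 400 U, 700 U, 125 U and 250 U libraries also took the edgeR adjusted p past the threshold (0.054, 0.15, 0.052 and 0.12). HEMA1 over FLU, per kb of CDS, was 8.57 to 9.70 at 14 days and 3.99 to 4.55 at 8 days.

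Of the 7 genes that build protoporphyrin from ALA, 5 were lower at 14 days (25.1% of all genes were) and none was higher. HEMC (AT5G08280), the porphobilinogen deaminase, had 257, 274 and 267 CPM at 14 days and 360.2, 360.0 and 367 CPM at 8 days. The 14-day libraries were all lower, by 0.45 ± 0.07 on the log2 scale (edgeR adjusted p = 1.7e-07). HEMF1, the coproporphyrinogen oxidase, fell by 0.38, the uroporphyrinogen decarboxylases HEME2 and HEME1 by 0.36 and 0.21, and the protoporphyrinogen oxidase PPOX1 by 0.35. The call of HEME1 (edgeR adjusted p = 0.022) was lost without the 400 U, 550 U or 125 U library (0.12, 0.056 and 0.092) and with the 700 U library summed with its repeat (0.098). HEMB1, the ALA dehydratase, had a log2 fold change of -0.14 ± 0.07 and the uroporphyrinogen III synthase HEMD one of -0.00 ± 0.18, and neither was called.

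Magnesium chelatase inserts the metal into protoporphyrin with the subunits CHLH, CHLI and CHLD. All 4 of its genes were lower in 14-day seedlings. CHLH had 2549, 2537 and 2673 CPM at 14 days and 3339, 3447 and 3304 CPM at 8 days, without overlap (log2 fold change -0.38 ± 0.05, edgeR adjusted p = 2.9e-08). CHLI2 (AT5G45930), the less abundant copy of the ATPase subunit, had 99.1, 70.0 and 79.9 CPM at 14 days and 104, 121 and 131 CPM at 8 days (-0.52 ± 0.10, edgeR adjusted p = 1.0e-05). CHLD and CHLI1 fell by 0.27 and 0.26 on the log2 scale.

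GUN4 (AT3G59400), which binds porphyrins and stimulates the chelatase, was higher. It had 343, 349 and 364 CPM at 14 days and 268, 284 and 282 CPM at 8 days, a log2 fold change of 0.34 ± 0.07 (edgeR adjusted p = 2.9e-05). The 3 fitted 14-day libraries lay above all 8-day libraries, but the 700 U repeat, which was not fitted, stood at 282 CPM, within the 8-day range. Per kb of CDS, CHLH over GUN4 was 1.42, 1.39 and 1.41 at 14 days and 1.91 in the repeat, against 2.39, 2.33 and 2.25 at 8 days. Other called genes for which the repeat lay nearer to the 8-day mean were CHLD, CHLI2, HEME1 and PAO.

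Most later steps of the branch rose. CHLM (AT4G25080), the magnesium protoporphyrin methyltransferase, had 368, 386 and 421 CPM at 14 days and 274, 288 and 275 CPM at 8 days (log2 fold change 0.49 ± 0.07, edgeR adjusted p = 1.7e-08). CRD1, with 2472, 2460.5 and 2419.9 CPM at 14 days against 1759, 1833 and 1873 CPM at 8 days, rose by 0.43 ± 0.06 (edgeR adjusted p = 2.5e-09). In both genes the groups were clearly apart. CHLP had 3223, 3162 and 3598 CPM at 14 days and 2298, 2298 and 2264 CPM at 8 days (0.54 ± 0.06, edgeR adjusted p = 2.4e-12). CAO (AT1G44446), the oxygenase that makes chlorophyll b from chlorophyll a, had 399.7, 421 and 439 CPM at 14 days and 252, 272 and 263 CPM at 8 days (0.68 ± 0.07, edgeR adjusted p = 9.1e-13). Here, too, each 14-day library was above each 8-day library. CHLG (AT3G51820), the chlorophyll synthase that joins ring and tail, had 195, 206 and 220.2 CPM at 14 days and 208, 199 and 182 CPM at 8 days. Its groups overlapped and it was not called (0.08 ± 0.08, edgeR adjusted p = 0.37).

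DVR (AT5G18660), the reductase that acts on a vinyl side chain of the chlorophyll ring, differed from these. It had 44.8, 46.3 and 44.8 CPM at 14 days and 107, 93.7 and 89.9 CPM at 8 days. All 14-day libraries lay below all 8-day libraries, by 1.09 ± 0.10 on the log2 scale (edgeR adjusted p = 1.4e-13), and the 700 U repeat was at 38.1 CPM.

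The light-dependent protochlorophyllide oxidoreductases PORA, PORB and PORC drive the step of chlorophyll synthesis that needs light. PORB (AT4G27440) had 257, 264 and 293 CPM at 14 days and 177, 200.5 and 175 CPM at 8 days, which did not overlap (log2 fold change 0.56 ± 0.07, edgeR adjusted p = 3.7e-09). PORC (AT1G03630) had 152, 156 and 159.8 CPM at 14 days and 131, 134 and 134 CPM at 8 days (0.23 ± 0.08, edgeR adjusted p = 0.011). PORA was far below both at every age. It had 4.59, 2.46 and 3.35 CPM at 14 days, from 12, 6 and 11 counts, and 2.01, 1.99 and 1.47 CPM at 8 days, from 9, 9 and 10 counts. Its log2 fold change of 0.95 ± 0.46 was not called (edgeR adjusted p = 0.081), and a gene at this depth that shares the start of its CDS with PORB allows no firm statement. Summed per kb of CDS, the POR genes stood at 343, 351 and 379 CPM at 14 days and 258, 279.9 and 258 CPM at 8 days.

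**Figure D3:**
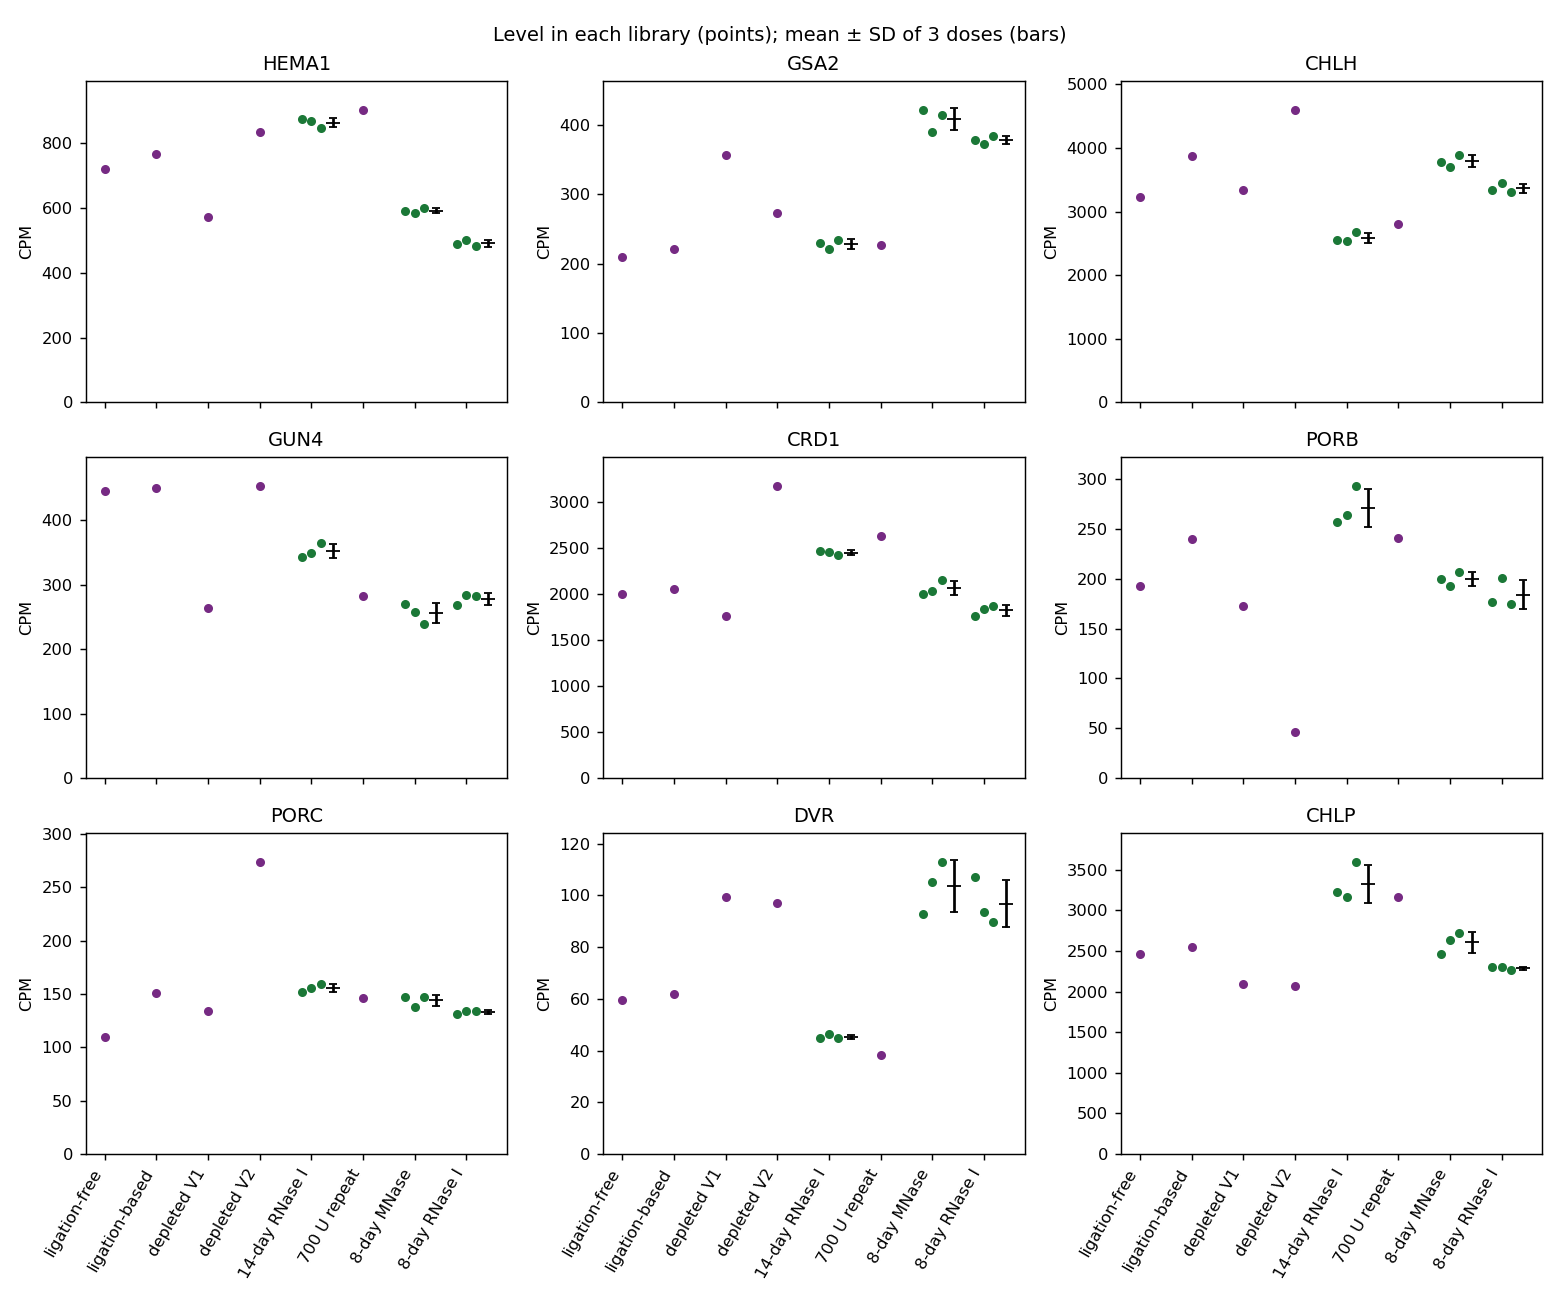
CPM (vertical axis, from 0) of 9 genes in each library (points), green for the doses of a group of 3, with their mean and SD beside them, and purple for single libraries. HEMA1, CRD1, PORB and CHLP are higher and GSA2, CHLH and DVR lower in 14-day than in 8-day RNase I libraries; PORB drops to 46.8 CPM in depleted V2 only, where PORC reaches 274 CPM.

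In the heme and bilin branch, 2 of 4 genes were lower at 14 days (25.1% of all genes were) and the others were not called. FC1 (AT5G26030), a ferrochelatase, had 30.6, 16.4 and 21.3 CPM at 14 days and 33.8, 39.4 and 35.4 CPM at 8 days, all 14-day values being lower (log2 fold change -0.66 ± 0.16, edgeR adjusted p = 3.6e-04). FC2 (AT2G30390), the other ferrochelatase, had 44.8, 44.6 and 44.8 CPM at 14 days and 54.6, 51.6 and 51.4 CPM at 8 days, and was not called (-0.23 ± 0.11, edgeR adjusted p = 0.09). It was called when the 700 U library was summed with its repeat (-0.30, adjusted p = 0.021). HY2, which makes phytochromobilin, had 7.65, 5.32 and 11 CPM at 14 days and 12.5, 8.42 and 16.9 CPM at 8 days. Its groups overlapped, and its call (-0.65 ± 0.26, edgeR adjusted p = 0.035) was lost with DESeq2 (adjusted p = 0.11). Leaving out the 400 U, 550 U, 62.5 U or 250 U library gave edgeR adjusted p-values of 0.11, 0.21, 0.058 and 0.35. HO1 (AT2G26670), the heme oxygenase before it, stayed within 112 to 125 CPM in these 6 libraries.

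Genes of the chlorophyll cycle and of breakdown were low throughout, and 2 of 6 were called, against 50.4% of all genes. NYC1 (AT4G13250), a chlorophyll b reductase, had 60.8, 72.9 and 70.4 CPM at 14 days and 58.2, 50.5 and 49.6 CPM at 8 days (log2 fold change 0.37 ± 0.11, edgeR adjusted p = 0.003). PAO (AT3G44880), which opens the ring of pheophorbide, had 36, 39.7 and 35.1 CPM at 14 days and 41.2, 52.9 and 44.9 CPM at 8 days (-0.33 ± 0.13, edgeR adjusted p = 0.026). The groups of both genes were apart, though by little. PAO was not called by DESeq2 (adjusted p = 0.079), without the 400 U, 700 U or 125 U library (edgeR adjusted p = 0.079, 0.089 and 0.16), or with the 700 U library summed with its repeat (0.067). SGR1 (AT4G22920), the magnesium dechelatase that starts breakdown, had 13.0, 13.5 and 14.3 CPM at 14 days and 22.1, 18.2 and 14.7 CPM at 8 days (-0.40 ± 0.20, edgeR adjusted p = 0.09). It was called without the 250 U library (-0.56, adjusted p = 0.026) and with the 700 U library summed with its repeat (-0.53, adjusted p = 0.023). NOL had 19.1, 18.4 and 14.0 CPM at 14 days and 18.8, 25.0 and 19.1 CPM at 8 days, which overlapped. HCAR, the hydroxymethyl chlorophyll a reductase, and the pheophytinase PPH were not called (edgeR adjusted p = 0.59 and 0.1).

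Further genes of the pathway were compared from lists. Of 16 other pathway genes tested, 5 were higher and 2 lower at 14 days, against 25.3% and 25.1% of all genes. HEMA2, the second glutamyl-tRNA reductase gene, had 54.3, 58.5 and 46.7 CPM at 14 days and 19.7, 19.7 and 21.9 CPM at 8 days (log2 fold change 1.36). MES16, which demethylates chlorophyll catabolites, rose by 1.41 on the log2 scale, and LIL3:2, a light-harvesting-like protein that holds geranylgeranyl reductase at the membrane, by 0.91. GBP, the glutamyl-tRNA reductase binding protein, fell by 0.51 and GUN1 by 0.39. Among 9 regulators of greening, PIF1, GLK2 and PIF5 were higher (log2 fold changes 1.13, 0.94 and 0.73) and GNC, GLK1 and GNL lower (-0.61, -0.43 and -0.29). In the MEP pathway, which supplies the phytyl tail, HDR and DXS1 rose by 0.56 and 0.49, whereas 5 of 8 genes were lower.

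Other features of the seedlings moved along with age. All 8 root markers that could be tested were lower at 14 days (median log2 fold change -2.03), and 4 of 5 green tissue markers were higher. Clock genes differed strongly: PRR9 and GI were lower (log2 fold changes -4.99 and -5.94), and ELF3, TOC1, LHY and CCA1 rose by 1.49, 1.15, 0.76 and 0.53. At 14 days PRR9 had only 0.765, 1.23 and 0.610 CPM and GI 0, 0.409 and 0 CPM. The size of their changes is therefore uncertain. The part of tissue make-up or of the time of harvest in the differences of the tetrapyrrole genes was not tested.

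The stretches before the genes were searched for 4 short motifs on both strands, 250 bases upstream of each RefSeq gene start, of which 27418 were read. The G-box (CACGTG), bound by PIF and HY5 proteins, occurred before 7 of the 36 genes (19.4%), against 6.48% of all genes. It was found before 2 of the 9 genes higher at 14 days (CAO and CRD1), 2 of the 17 lower ones (HY2 and GluRS) and 3 of the 10 that were not called (HEMD, FC2 and NOL). CCAATC, a motif reported near GLK targets, occurred before 3 of 36 (8.33%, against 10.2% of all genes), the I-box GATAAG before 2 (5.56%, against 12.3%), and the evening element AAAATATCT of clock-regulated genes before 3 (8.33%, against 2.36%). None of these motifs contains another, and the G-box reads the same on both strands. The windows of 3 genes that were higher at 14 days are shown, CAO and CRD1 for their G-boxes and PORB for CCAATC and the evening element. Sequences are from the RefSeq genome TAIR10.1, 5′ to 3′ towards the gene, and capitals mark the motif on either strand. These are matches of letters, not evidence of binding.
CAO chr1:16851272-16851521 (minus strand): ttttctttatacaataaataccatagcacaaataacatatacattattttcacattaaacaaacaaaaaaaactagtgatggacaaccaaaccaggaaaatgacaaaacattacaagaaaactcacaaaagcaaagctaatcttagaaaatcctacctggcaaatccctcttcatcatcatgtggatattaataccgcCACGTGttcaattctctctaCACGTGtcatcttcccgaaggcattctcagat
CRD1 chr3:21076255-21076504 (plus strand): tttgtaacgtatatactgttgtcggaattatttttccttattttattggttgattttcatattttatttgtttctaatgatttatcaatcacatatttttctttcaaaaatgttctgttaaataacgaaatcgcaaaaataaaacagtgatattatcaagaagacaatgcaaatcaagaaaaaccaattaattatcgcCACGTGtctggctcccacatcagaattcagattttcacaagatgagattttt
PORB chr4:13725296-13725545 (plus strand): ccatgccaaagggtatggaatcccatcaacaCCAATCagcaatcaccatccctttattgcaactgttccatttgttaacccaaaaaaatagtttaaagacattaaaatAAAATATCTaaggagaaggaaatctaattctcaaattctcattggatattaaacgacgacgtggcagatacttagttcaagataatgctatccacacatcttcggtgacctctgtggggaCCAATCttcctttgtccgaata

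Removal of rRNA was compared next, the depleted V1 and V2 libraries (600 U) against the 3 undepleted 14-day libraries, which also serve in the comparison of ages. Of the 36 genes, 2 were higher and 2 lower in depleted libraries. Over all 15532 genes, which were not matched to the 36 for level, 10.1% were called higher and 12.3% lower by edgeR. The median log2 fold change was 0.13 for the 36 and 0.00 for all genes. With library totals in place of TMM, all genes shifted to -0.14 and the 36 to -0.00, and 30.6% of all calls were higher rather than 45.1%. Depleted libraries lay wholly above undepleted ones for 10 of the 36 (25.4% of all genes) and wholly below for 6 (27.5% of all genes).

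DVR had 99.4 CPM in V1 and 97.1 CPM in V2, against 44.8, 46.3 and 44.8 CPM in undepleted libraries, a log2 fold change of 1.12 ± 0.15 (edgeR adjusted p = 0.0023) that was also called with any 1 undepleted library left out. CHLH stood at 3336 CPM in V1 and 4591 CPM in V2, against 2549, 2537 and 2673 CPM (0.62 ± 0.18, edgeR adjusted p = 0.042). In both genes the depleted libraries were above all undepleted ones, and for CHLH they were also far from each other. CHLP had 2098 and 2069 CPM in V1 and V2, against 3223, 3162 and 3598 CPM (-0.68 ± 0.16, edgeR adjusted p = 0.02). CHLM had 291 and 255 CPM in V1 and V2, against 368, 386 and 421 CPM (-0.52 ± 0.15, edgeR adjusted p = 0.043). Both were below every undepleted library. PORB, with 173 and 46.8 CPM in V1 and V2 against 257, 264 and 293 CPM, was also lower in each, but its depleted libraries differed so much that it was not called (-1.30 ± 0.44, edgeR adjusted p = 0.067).

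With V1 or V2 left out, the depleted group is 1 library, which is assumed to vary like the 3 undepleted ones, so that such a fit compares that library and not the treatment. With V1 left out, 10 of the 36 were higher and 4 lower, against 19.8% and 21.6% of all genes. With V2 left out, 10 were higher and 7 lower, against 17.3% and 22% of all genes. GUN4 had 264 and 453 CPM in V1 and V2 and CRD1 1760.0 and 3173 CPM, so both lay below all undepleted libraries in V1 and above them in V2. Without V1, PORB differed by -2.53, PORC by 0.81 and FC2 by 1.4 on the log2 scale, and without V2, PORB by -0.65 and HEMA1 by -0.59. The log2 fold changes of GUN4 and CRD1 of 0.02 and 0.01 became -0.41 and -0.48 without V2, and 0.36 and 0.37 without V1. Leaving out the 400 U, 550 U or 700 U library gave edgeR adjusted p-values of 0.19, 0.19 and 0.12 for CHLH, 0.11, 0.11 and 0.082 for CHLP, and 0.13, 0.15 and 0.15 for CHLM. The call of CHLM was also lost with DESeq2 (adjusted p = 0.072). HEMA2, MES16, LIL3:2 and GLK2 were lower in depleted libraries (log2 fold changes -1.35, -1.33, -1.03 and -0.83), and all 4 root markers that could be tested were higher. The other 6 root markers had too few counts to test. They stood at 1.79 to 10.2 CPM in V1 but at 0 to 0.462 CPM in V2, against 0 to 1.52 CPM in undepleted libraries. PRR9 stood at 32.6 CPM in V1 and 32.5 CPM in V2, against 0.765, 1.23 and 0.610 CPM. Other clock genes differed between V1 and V2, in both directions. PRR7 had 3.04 CPM in V1 and 30.2 CPM in V2, and GI 6.21 and 23.8 CPM. LHY had 275 CPM in V1 and 119.5 CPM in V2, and ELF3 8.83 and 2.08 CPM. Removal of rRNA, the seedlings behind V1 and V2 and the fragment size selected, narrower for depleted libraries, cannot be told apart here.

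The V1 library was also set against the 8-day RNase I libraries, with which it shares neither age label nor dose. Of 35 genes with enough counts, 0 differed by over 2-fold in either direction, against 0.273% higher and 0.482% lower over all 15775 genes. Log2 ratios ranged between -0.28 for FC2 and 0.61 for HY2, and their median was -0.05, against -0.02 for all genes. HEMA1 stood at 573 CPM in V1 and 491 ± 10.4 CPM in the 8-day RNase I libraries (mean and SD, n = 3), CRD1 at 1760.0 against 1822 ± 57.8, and DVR at 99.4 against 96.9 ± 9.08 CPM. The 9 genes higher at 14 days were all nearer to their 8-day mean in this library, and so were the 17 lower ones.

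V1 over V2 compares 1 library with 1 library and carries no test. Intervals are 95% and cover counting error only. Of the 36 genes, 2 were past 2-fold higher in V1 and 3 past 2-fold lower, against 5.3% and 6.88% of 14682 genes. Within 1.5-fold lay 80.6% of the 36 and 68.4% of all genes, which were not matched to the 36 for level. PORB stood out with 173 CPM in V1 (1252 counts) and 46.8 CPM in V2 (203 counts), a log2 ratio of 1.88 (interval 1.67 to 2.1). In the opposite direction PORC had 134 CPM in V1 and 274 CPM in V2 (-1.03, interval -1.16 to -0.91), and FC2 43.2 and 118 CPM (-1.45, interval -1.66 to -1.25). With library totals in place of TMM the log2 ratio of PORC was -0.73, no longer past 2-fold. V2 was therefore the lowest of 14 libraries for PORB and the highest for PORC and FC2. HY2, with 139 counts in V1 and 34 in V2, had a log2 ratio of 1.29 (0.74 to 1.88), and PORA, with 13 and 20 counts, one of -1.36 (-2.49 to -0.28). Both rest on few counts.

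PORB over PORC, per kb of CDS, was 0.171 in V2 and 1.29 to 1.83 in the other 13 libraries, V1 being the lowest of those. The summed level of the 3 POR genes differed far less, at 256 CPM per kb in V1 and 270.2 in V2. FC2 over FC1 was likewise 3.95 in V2 and 0.994 to 2.43 elsewhere. Complementarity to the depletion oligos was looked for in each CDS. The longest run of PORB that pairs with any of the 29 oligos was 10 bases, as long as or shorter than that of 47.8% of nuclear genes, and the longest of the 36 was 12 bases, in FC1 and GluRS. GUN4 (-0.78), CRD1 (-0.85), HEMA1 (-0.54), CAO (-0.54) and CHLH (-0.46) were also lower in V1 than in V2 on the log2 scale. HEMC (0.54), FC1 (0.54), GSA2 (0.38), FLU (0.35) and HEMF1 (0.34) were higher in V1, and the median of the 36 was 0.03. Clock genes also differed between V1 and V2, as given above, and the part of harvest time was not tested.

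**Figure D4:**
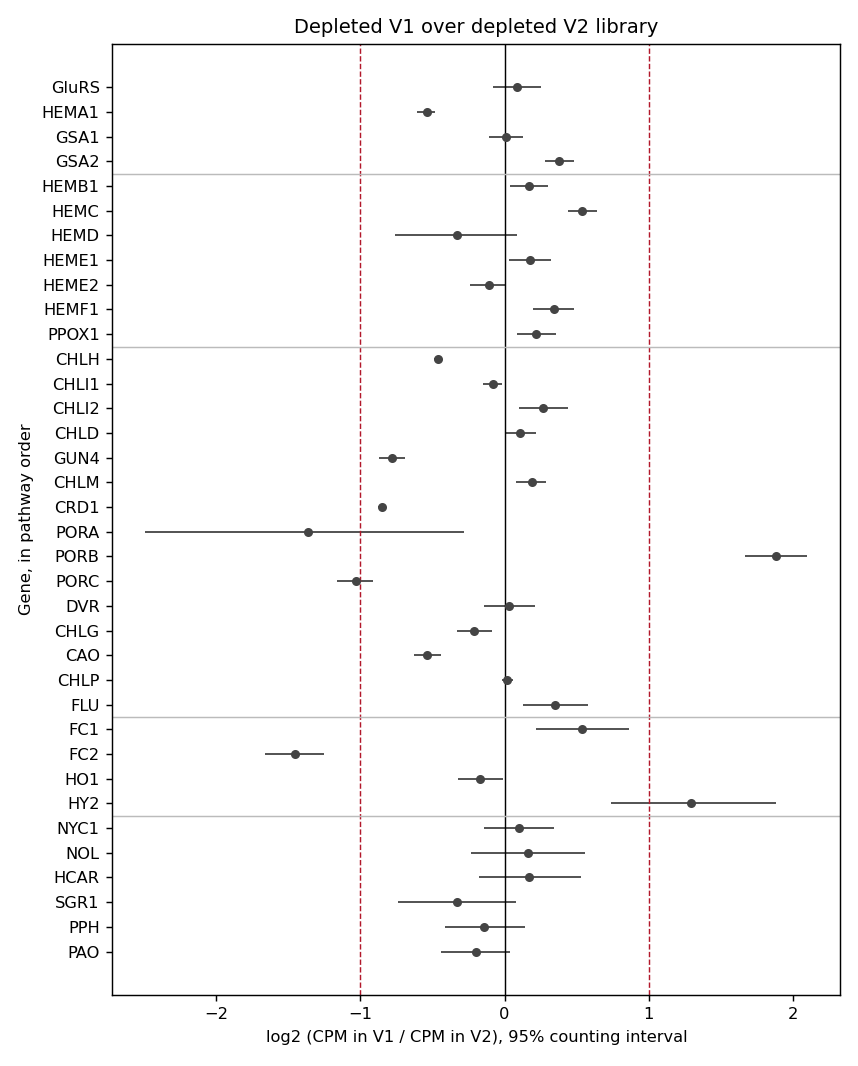
Log2 ratio of CPM in depleted V1 over depleted V2 (horizontal axis) for the 36 genes (rows, in pathway order), with 95% counting intervals; dashed lines mark 2-fold. PORB and HY2 lie beyond the right line and FC2, PORA and PORC beyond the left one.

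Between the library kits, ligation-free over ligation-based, these genes differed little. The ligation-free library was also amplified with fewer PCR cycles. Of 35 genes with at least 10 counts in each library, 0 were past 2-fold, against 1.32% higher and 2.16% lower over 13019 genes. Within 1.5-fold lay 97.1% of the 35, against 82% of all genes. The genes compared were not matched for level: 25 of the 36 lay in the top 10% of RPF density. The ratios ranged between -0.46 (PORC, 109.8 CPM ligation-free and 151 CPM ligation-based) and 0.78 (HY2, 12.6 and 7.33 CPM) on the log2 scale, with a median of 0.02. PORA, with 21 and 5 counts, was too low to compare. PORB (193 and 239.7 CPM) and CHLH (3227 and 3867 CPM) were lower with the ligation-free kit by 0.31 (interval -0.47 to -0.16) and 0.26 (interval -0.30 to -0.22) on the log2 scale, beyond counting error, but without a repeat of either library. Per kb of CDS, HEMA1 over GSA1 and GSA2 together was 1.62 ligation-free and 1.66 ligation-based, between the 8-day and the undepleted 14-day ratios, and DVR, at 59.5 and 61.9 CPM, also lay between those groups.

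The 700 U repeat was made from the same fragments as the 700 U library but amplified with more PCR cycles. The paper used this pair to assess PCR bias. Of the 36 genes 0 were past 2-fold (2.62% of 13680 genes were higher and 3.79% lower). Within 1.5-fold lay 94.4% of the 36 and 77.8% of all genes, which were not matched to the 36 for level. HEMF1 had 104 CPM in the repeat and 174 CPM in the first library, a log2 ratio of -0.74 (interval -0.92 to -0.56), and CHLI2 113 and 79.9 CPM (0.50, interval 0.28 to 0.72). Many others also differed beyond counting error. Lower in the repeat were PPH (-0.59), GUN4 (-0.37), FC2 (-0.34), PORB (-0.28), CHLM (-0.25), PPOX1 (-0.23), CHLP (-0.19) and CAO (-0.10). Higher in it were CHLD (0.30), HEME1 (0.20), HEMC (0.17), CRD1 (0.12), HEMA1 (0.09) and CHLH (0.07). The part of PCR cycles in these differences was not tested.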

How the data were processed

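Ribo-seq counts of 14 Arabidopsis libraries of a series of 16 were used. The deposited values are whole read counts per gene, which the authors made by removing adapters and molecular identifiers with cutadapt, discarding rRNA, tRNA and snoRNA reads and aligning the rest to TAIR10 with STAR, and counting reads on the sense strand of CDS with featureCounts. The versions of these tools were not given in the sources used. The kit libraries came in a table of their own. The deposited counts were scaled with TMM over all 14 libraries and given as CPM, and levels per kb used the CDS length.

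Each comparison was fitted on its own libraries by the edgeR 4.0.16 quasi-likelihood test in R 4.3.3, on genes with at least 10 counts in 3 of 6 libraries (2 of 5 for depletion), with Benjamini-Hochberg adjustment over all genes tested and a threshold of 0.05. The fits were also run on simulated counts with 2-fold changes and the same spread in every library. That run does not cover the smaller changes called here or the spread between V1 and V2. DESeq2 1.42.0, other scalings, no filter, 1 fit over 4 groups and leaving out each library were alternatives. The 700 U repeat stayed out of the fits. Pairs of single libraries were compared without a test, by 2-fold, with 95% counting intervals, which cover counting error only. Sequence was read from the RefSeq genome TAIR10.1, checked against the coding sequences of the files' identifiers.

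The 36 genes and all lists were chosen with earlier results of these data known. Values of every library were given for up to 6 called genes in each direction of a comparison, up to 3 past 2-fold in a pair, the 3 highest and 3 lowest per kb, and 12 regulated steps such as HEMA1, CHLH and the POR genes. Further genes were named after their values were seen.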

Additional observations from a re-analysis of the deposited data

How the results depend on the processing

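Of 141 counts of genes under alternative settings, 111 stayed within 1.5 times the reported one and 30 did not. Of 781 values for single named genes, 714 kept their direction and side of the threshold, 40 lost the call, 22 gained one, 3 moved and 2 reversed. With 1 fit over 4 groups, 0 of the 36 genes were higher with MNase than with RNase I (5 genes called in all), 5 were higher at 14 than at 8 days (18.1% of all genes), and 6 were higher in depleted than in undepleted libraries (15.5% of all genes). DESeq2 and TMM within the comparison each left 1 gene lower in depleted libraries. Leaving out 1 library at a time gave 2 to 5 genes higher with MNase (131 to 400 genes in all), 9 to 10 higher and 13 to 16 lower at 14 days (6598 to 7000 in all), and 1 to 10 higher and 0 to 7 lower in depleted libraries (1128 to 6008 in all). The highest counts for depletion come from fits with V1 or V2 alone, where the lone library is assumed to vary like the undepleted ones. Without V2, GUN4 and CRD1 turned to log2 fold changes of -0.41 and -0.48 between depleted and undepleted libraries, and without V1 they stood at 0.36 and 0.37. For V1 over V2, a minimum of 50 counts left 1 gene past 2-fold higher, and 1.5-fold gave 5 lower. That limit gave 1 gene higher ligation-free over ligation-based and 1 higher in V1 over 8-day RNase I libraries. With library totals, V1 over V2 was 2.18 for PORB, -0.73 for PORC, which was then not past 2-fold, and -1.16 for FC2 on the log2 scale. The cause was not tested. With 2 or 3 libraries a group, and 5 to 33 counts of PORA per library, the precision for low genes is limited.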
